A study of Homo sapiens with 6 samples.

Results

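The inhibitors of cyclin-dependent kinases (CDKs) and the D-type cyclins were followed in MDA-MB-231 cells silenced for NEK2, a serine/threonine kinase of the centrosome and of mitosis. The 10 genes were the Cip/Kip inhibitors CDKN1A, CDKN1B and CDKN1C, the INK4 inhibitors CDKN2A, CDKN2B, CDKN2C and CDKN2D, and the cyclins CCND1, CCND2 and CCND3, out of 74852 genes listed in the deposited table. Each was found by its symbol, and each had a row of its own. The family was chosen from measured values of these same libraries, namely the lower normalized count of CDKN1A in si-NEK2 cells, so that the differences of its members between the groups are given as a description and carry no p-value. Of the 10 genes, 9 averaged 10 normalized counts or more and were tested, and CCND2 did not.

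D-type cyclins bind CDK4 and CDK6 early in G1 phase, in response to growth signals, and the active kinases phosphorylate the retinoblastoma protein RB1, which frees E2F factors to transcribe genes for DNA synthesis. INK4 proteins bind CDK4 and CDK6 alone and keep cyclin D from joining them. Cip/Kip proteins bind whole cyclin-CDK complexes, block CDK2 with cyclin E or A, and can also help cyclin D and CDK4 to assemble.

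MDA-MB-231 is a human triple-negative breast cancer (TNBC) line of mesenchymal appearance. The cells were transfected 2 times with siRNAs, either without a target (si-CTRL, 3 libraries) or against NEK2 (si-NEK2, 3 libraries). Per the labels, they were harvested 24 h after the second transfection. The methods of the study give a different time after transfection, without saying which transfection is meant, so that the times need not conflict. All libraries came from this 1 line, and no label says whether replicates were separate cultures, so that the p-values measure the spread between these libraries, which may be technical. Silencing was transient, and bulk RNA cannot tell fewer cells expressing a gene from less RNA per cell. Per the methods of the study, each group received a pool of siRNAs. Other effects of the pool cannot be told apart from loss of NEK2.

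NEK2 itself was 3702, 3323 and 3290 normalized counts in the si-CTRL libraries and 284, 362 and 388 in the si-NEK2 libraries, a log2 fold change of -3.32 (SE 0.12, limma adjusted p = 1.86e-06, n = 3 per group). A normalized count is the number of reads assigned to a gene divided by the size factor of its library. The libraries held 52625492 to 87454509 assigned reads, so that 1 read was worth 0.818 to 1.25 normalized counts. The first principal component (61.7% of the variance) separated the groups, and si-CTRL replicate 1 stood apart on the second (16.2%). All 6 markers of mesenchymal TNBC cells were above 100 normalized counts in si-CTRL cells, and 4 of them passed both thresholds, with CD44 (-0.76), ZEB1 (-0.82) and SNAI2 (-0.71) lower and CAV1 (0.69) higher in si-NEK2 cells on the log2 scale. Of 6 luminal, HER2 and epithelial markers, ESR1, PGR, EPCAM and CDH1 stayed at 15.2 normalized counts or less in every library. The other 2 were measured, ERBB2 at a mean of 2822 in si-CTRL and 4020 in si-NEK2 cells (log2 fold change 0.53, adjusted p = 0.00744, short of the fold threshold) and GATA3 at 427 and 321. Of 8 markers of other cell types, COL1A1, PDGFRB and CD68 were above 100, the last on a row shared with EIF4A1 and other genes, and none of the 8 passed the thresholds. Their summed count was 264056 to 295057 in si-CTRL and 264100 to 278186 in si-NEK2 libraries. One point of the label needs stating: MDA-MB-231 is widely described as having lost CDKN2A, yet CDKN2A, CDKN2B and the row of the adjacent gene MTAP each had 973 reads or more in every library of both groups. The identity of the cells was not tested.

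The start regions of 3 genes are shown because these inhibitors differed most between the groups. In each sequence, 150 bases before the RefSeq start are printed 5′ to 3′ on the strand of the gene (assembly GRCh38.p14), with GC boxes (GGGCGG, either strand) and CCAAT boxes (CCAAT, either strand) in capitals. The CDKN1A stretch is chr6:36678564-36678713 (+), the CDKN1B stretch chr12:12717218-12717367 (+) and the CDKN2B stretch chr9:22009306-22009455 (−).
CDKN1A: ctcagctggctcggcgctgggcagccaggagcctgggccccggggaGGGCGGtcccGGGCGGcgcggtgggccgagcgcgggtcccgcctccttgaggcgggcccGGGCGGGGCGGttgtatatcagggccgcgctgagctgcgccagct
CDKN1B: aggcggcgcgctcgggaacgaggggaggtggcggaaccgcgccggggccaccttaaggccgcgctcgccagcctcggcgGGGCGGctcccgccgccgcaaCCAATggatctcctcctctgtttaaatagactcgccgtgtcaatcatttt
CDKN2B: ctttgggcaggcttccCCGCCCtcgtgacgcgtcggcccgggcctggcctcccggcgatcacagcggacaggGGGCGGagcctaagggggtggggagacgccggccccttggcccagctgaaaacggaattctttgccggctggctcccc
Over 250 bases before the start, CDKN1A held 4 GC boxes, of which some share letters, and no CCAAT box. CDKN1B held 1 GC box and 2 CCAAT boxes, and CDKN2B held 2 GC boxes and no CCAAT box. Among 35116 RefSeq windows of that length, 42.6% held at least 1 GC box, 13.9% at least 3, and 32% at least 1 CCAAT box. The GC content was 76.4% for CDKN1A, 64.4% for CDKN1B and 66.4% for CDKN2B, against a median of 58% over all windows. RefSeq windows were matched for 7 of the 10 genes, and the table had no entry for CDKN1C, CCND1 and CCND2.

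A difference was called where p was 0.05 or less and the fold change 1.5 or more. Of the 9 tested genes, 5 passed both thresholds. Across all 18717 genes tested, 22.5% did so. Higher counts in si-NEK2 cells were called for CDKN1B and CDKN2B, against 8.23% of all genes, and lower counts for CDKN1A, CDKN1C and CCND1, against 14.3% of all genes. The si-CTRL and si-NEK2 libraries did not overlap for 7 of the 9 genes, against 55% of all genes. These counts describe genes that were picked with the contrast in view. The median log2 fold change was -0.02 over the 9 genes and 0.01 over all genes tested.

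**Figure D1:**
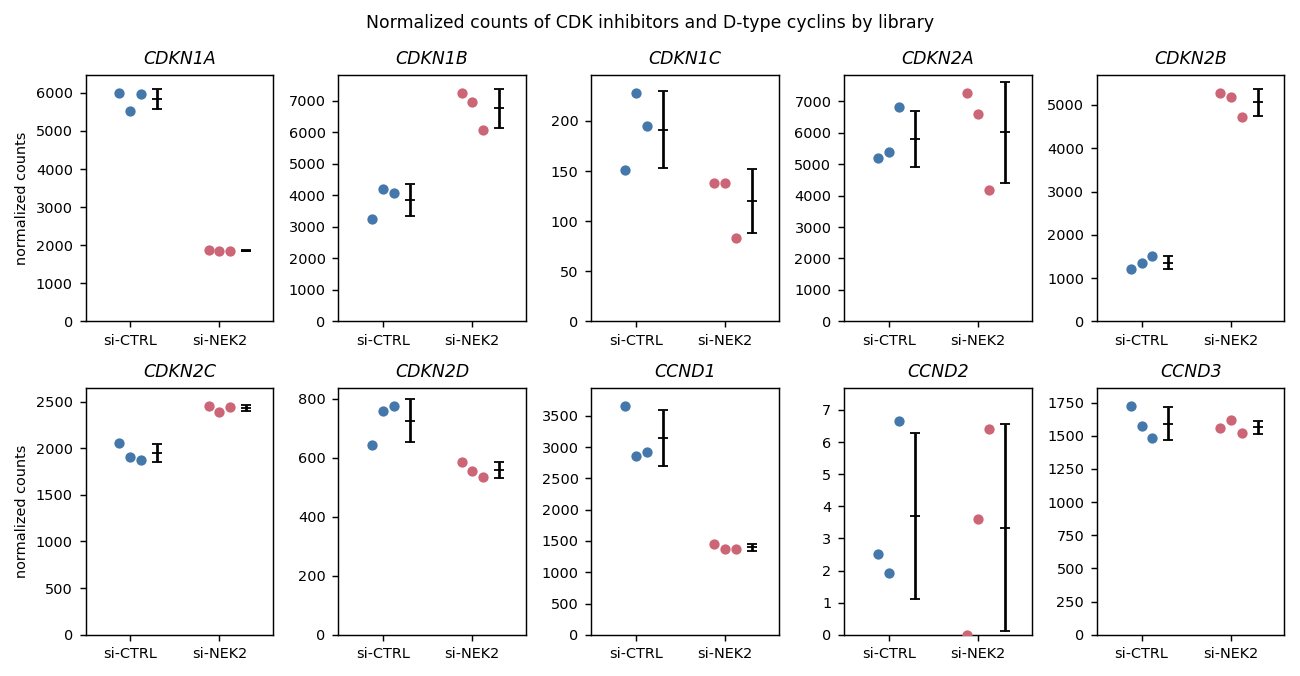
Normalized counts (vertical axes, linear and from 0) of the 10 genes in the 3 si-CTRL (blue) and 3 si-NEK2 (red) libraries, with the mean and SD of each group in black. CDKN1A and CCND1 sit lower, and CDKN1B and CDKN2B higher, in every si-NEK2 library than in any si-CTRL library, while CDKN2A and CCND3 overlap.

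Among the Cip/Kip inhibitors, CDKN1A (GSHG0025686, hg19 chr6:36644237-36655114) encodes p21, an inhibitor induced by DNA damage and on differentiation. It was 6000, 5526 and 5967 normalized counts in si-CTRL libraries and 1881, 1846 and 1850 in si-NEK2 libraries. All si-NEK2 libraries lay far below the lowest si-CTRL library and close to one another. The mean fell from 5831 ± 265 to 1859 ± 18.8 (SD, n = 3 each), which left 31.9% of the si-CTRL level, a log2 fold change of -1.65 (SE 0.07). Of all tested genes, 2.54% had a larger change in either direction. CDKN1A was chosen for this fall, so that its place among the genes is no test. The spread between the si-NEK2 libraries, a coefficient of variation of 1.01%, was below the 2.22% that counting alone would give.

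CDKN1B (GSHG0006492, chr12:12870204-12875314) encodes p27, an inhibitor that accumulates in resting cells and is mainly controlled through its degradation. It moved the other way, from 3263, 4200 and 4081 normalized counts in si-CTRL to 7259, 6958 and 6078 in si-NEK2 libraries. The lowest si-NEK2 library exceeded the highest si-CTRL library. The mean went from 3848 ± 510 to 6765 ± 613, 1.76-fold higher, with a log2 fold change of 0.82 (SE 0.11), or 0.70 without si-CTRL replicate 1.

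CDKN1C (GSHG0005479, chr11:2904450-2907003) encodes p57, an imprinted inhibitor known from development. It was low throughout, at 151, 228 and 195 normalized counts in si-CTRL and 138, 138 and 83.2 in si-NEK2 libraries. The groups did not overlap, but the gap between si-CTRL replicate 1 and the upper si-NEK2 libraries was smaller than the spread within either group. The log2 fold change was -0.69 (SE 0.23), and it fell short of the fold threshold without si-CTRL replicate 2 (-0.55) or without si-NEK2 replicate 3 (-0.44).

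Among the INK4 inhibitors, CDKN2B (GSHG0030725, chr9:22002909-22009312) encodes p15, known as a target of TGF-beta signalling. It was 1216, 1352 and 1515 normalized counts in si-CTRL and 5278, 5184 and 4710 in si-NEK2 libraries. Every si-NEK2 library lay far above the highest si-CTRL library. The mean rose from 1361 ± 150 to 5058 ± 304, 3.72-fold, with a log2 fold change of 1.90 (SE 0.09), and its increase ranked 84 among all tested genes.

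CDKN2A (GSHG0030724, chr9:21967752-21994490) encodes p16 and, from another first exon and reading frame, ARF, a nucleolar protein. It was 5178, 5396 and 6820 normalized counts in si-CTRL and 7261, 6574 and 4189 in si-NEK2 libraries. The si-NEK2 libraries held both the highest and the lowest value, so that the groups overlapped in full. The log2 fold change was 0.02 (SE 0.19), and its sign changed with the scaling and with the library left out. Both genes lie inside a row named CDKN2B-AS1 and MTAP (chr9:21802635-22121094), which was 9789 ± 551 in si-CTRL and 7235 ± 72.3 in si-NEK2 cells, a log2 fold change of -0.43 (SE 0.06, adjusted p = 0.000818) that missed the fold threshold. How reads were counted by strand is not given in the sources used here, so that reads of CDKN2B and of its antisense RNA may not be separated.

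CDKN2C (GSHG0000501, chr1:51426417-51440309) encodes p18 and is known as an E2F target. It was 2060, 1903 and 1876 normalized counts in si-CTRL and 2450, 2389 and 2439 in si-NEK2 libraries, without overlap, but its log2 fold change of 0.32 (SE 0.07) missed the fold threshold. CDKN2D (GSHG0015501, chr19:10677139-10679655) encodes p19, the INK4 member that is periodic in S phase. Its values were 642, 759 and 774 in si-CTRL and 586, 553 and 533 in si-NEK2 libraries, also without overlap, and its log2 fold change was -0.37 (SE 0.10). The next row on the chromosome, KRI1, 432 bases away, gave a log2 fold change of -0.43 (SE 0.14, adjusted p = 0.039). On the other side, 3692 bases away, the low row of AP1M2 (means of 49.8 in si-CTRL and 82.6 in si-NEK2 cells) went the opposite way. Its log2 fold change was 0.74 (SE 0.22, adjusted p = 0.0236), past both thresholds.

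Among the D-type cyclins, CCND1 (GSHG0005060, chr11:69455873-69469241) encodes cyclin D1, the D cyclin most often amplified in breast cancer. It was 3657, 2853 and 2928 normalized counts in si-CTRL and 1457, 1375 and 1365 in si-NEK2 libraries. The groups were well apart, and si-CTRL replicate 1 was the highest of all. The mean fell from 3146 ± 444 to 1399 ± 51, which left 44.5%, a log2 fold change of -1.16 (SE 0.10), or -1.05 without si-CTRL replicate 1. The row of ORAOV1, which overlaps the end of CCND1, had a log2 fold change of -0.29 (adjusted p = 0.00998).

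CCND3 (GSHG0026610, chr6:41902671-42016632), the cyclin D known best from lymphoid cells, was 1722, 1570 and 1480 normalized counts in si-CTRL and 1556, 1618 and 1518 in si-NEK2 libraries. The groups overlapped, with a log2 fold change of -0.02 (SE 0.08). CCND2 (GSHG0006395, chr12:4382902-4414522) had only 2, 2 and 7 reads in si-CTRL and 0, 4 and 6 in si-NEK2 libraries. It was at the limit of detection in both groups, where a count of 0 allows up to 3 reads, and no fold change is given.

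**Figure D2:**
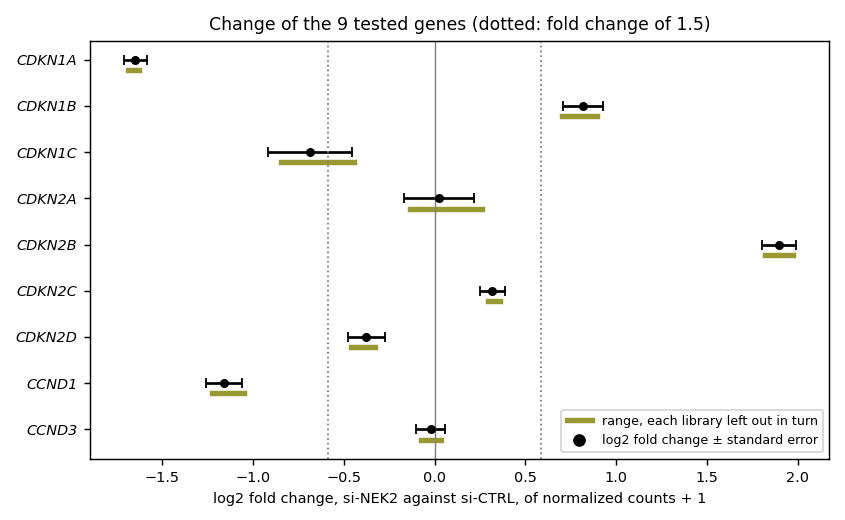
Log2 fold change of si-NEK2 against si-CTRL (horizontal axis) of the 9 tested genes with its standard error (black), and the range when each of the 6 libraries was left out in turn (bar under each point). CDKN1A, CDKN1B, CDKN2B and CCND1 stay past the dotted lines (a fold change of 1.5) throughout, CDKN1C crosses its line, and CDKN2A and CCND3 cross 0.

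To set genes against one another, reads were divided by exon length and by the assigned reads of the library, as RPKM values with the exons of all transcripts merged. In si-CTRL cells, the highest RPKM was that of CDKN1A (29.2 ± 1.12), followed by CDKN1B (20.9 ± 2.84) and CDKN2A (20.4 ± 3.05), which did not differ beyond their spread. CCND1 (9.93 ± 1.37) and CDKN2C (8.94 ± 0.44) did not differ beyond their spread either, and CDKN2D (7.36 ± 0.75), CDKN2B (5.11 ± 0.55), CCND3 (4.18 ± 0.32), CDKN1C (1.18 ± 0.24) and CCND2 (0.00786) came below. In si-NEK2 cells, the order began with CDKN1B (33.6 ± 2.99), CDKN2A (19.4 ± 5.17) and CDKN2B (17.4 ± 1.01), of which the last pair overlapped, and CDKN1A (8.5 ± 0.10) came after CDKN2C (10.2 ± 0.18). The cyclins CCND1 (4.04 ± 0.15) and CCND3 (3.76 ± 0.11) were close to each other there. The order depends on the length used: with the longest transcript alone, CDKN2A led in si-CTRL cells at 68.9, ahead of CDKN1A at 39.2, and CCND3 reached 10.1 beside CCND1 at 11.1. In si-NEK2 cells, CDKN2A then led at 65.3 ± 17.4, ahead of CDKN1B at 35.5 ± 3.16, and CCND3 (9.12 ± 0.26) lay above CCND1 (4.53 ± 0.17).

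Within a family, shares of the summed level do not depend on the scaling of the libraries. CDKN1A made up 57.0% ± 4.26 of the Cip/Kip level in si-CTRL and 20.0% ± 1.47 in si-NEK2 cells, while CDKN1B went from 40.7% ± 3.88 to 78.5% ± 1.16. The ratio of CDKN1A to CDKN1B was 1.42 ± 0.25 in si-CTRL and 0.255 ± 0.023 in si-NEK2 cells. CDKN2B made up 12.2% ± 0.39 of the INK4 level in si-CTRL and 33.5% ± 2.27 in si-NEK2 cells, or 5.76% and 18.3% with the longest transcript. CCND1 went from 70.2% ± 1.63 to 51.7% ± 1.24 of the D-type cyclins, and from 52.2% to 33.2% with the longest transcript. The summed RPKM of the 7 inhibitors overlapped between the groups, at 87.2 to 98.8 in si-CTRL and 84.3 to 102.9 in si-NEK2 libraries. The summed RPKM of the D-type cyclins was 14.1 ± 1.66 and 7.81 ± 0.17, with no overlap of the groups. With the longest transcript it was 21.3 ± 2.25 in si-CTRL and 13.7 ± 0.29 in si-NEK2 cells, also without overlap. Unlike the shares, both sums depend on the scaling of the libraries.

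**Figure D3:**
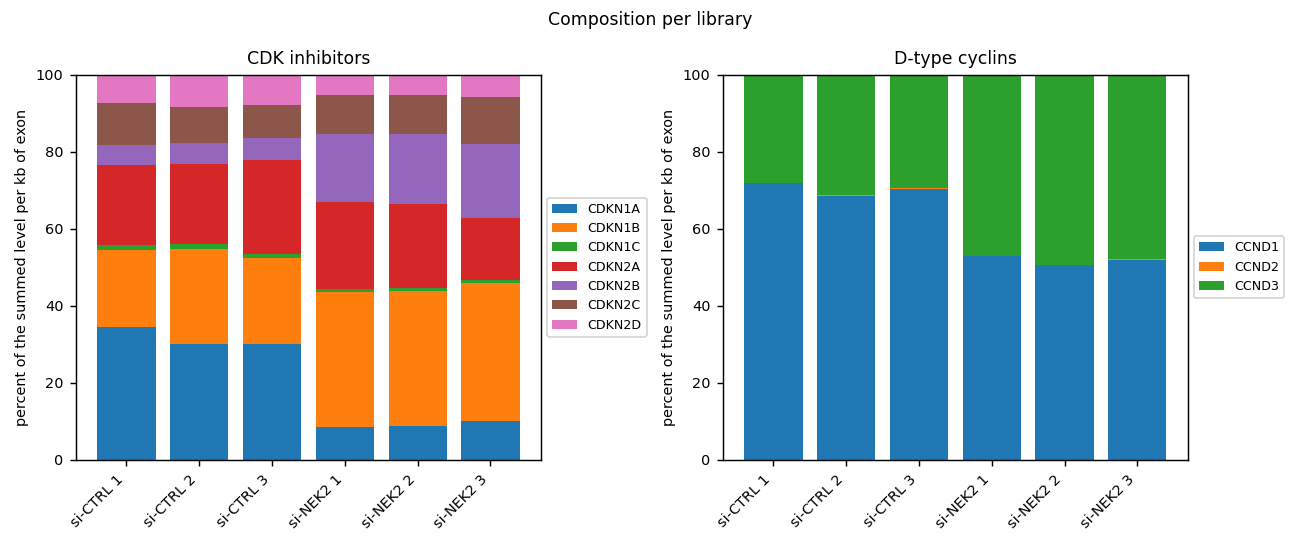
Share of each gene (percent of the summed level per kb of exon, stacked to 100) among the 7 CDK inhibitors (left) and the 3 D-type cyclins (right) in each library. Among the inhibitors CDKN1A takes 29.9% to 34.3% in si-CTRL and 8.38% to 10.1% in si-NEK2 libraries, and CCND2 is too low to be seen.

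The partners and regulators of these genes were taken as 8 lists with 132 genes in all, of which 130 were tested, and 7 of the lists are described one by one. Of these 130, 16 were higher and 14 lower past both thresholds and 100 were not called, with a median log2 fold change of 0.03. The share called, 30 of 130, lies near the 22.5% of all genes tested (8.23% higher and 14.3% lower). Single genes of small groups outside the naming rule were named after their values were seen.

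None of the kinases CDK4, CDK6 and CDK2 passed both thresholds. CDK4, the partner of D-type cyclins, was 10914, 15205 and 14077 normalized counts in si-CTRL and 9045, 9559 and 9645 in si-NEK2 libraries. Its log2 fold change of -0.50 (SE 0.11, limma adjusted p = 0.0076) missed the fold threshold, and reached -0.64 without si-CTRL replicate 1. CDK6 (-0.21, adjusted p = 0.219) and CDK2 (-0.11, adjusted p = 0.33) differed less. The list of CDKs and their cyclins held 11 genes, with CDK1, CDK7, CCNH and MNAT1 besides those of G1 and S phase. Of these 11, CCNE1, cyclin E1, fell by 2.64 on the log2 scale, from 406 to 65.2 normalized counts (adjusted p = 1.92e-05). CCNA1, the cyclin A of the germ line, was the 1 gene called higher (log2 fold change 2.23), from a low level of 23.7 to 47.5 normalized counts in si-CTRL libraries to 151 to 205 in si-NEK2 libraries. The other 9 were not called (list median -0.11). Among them, CCNA2 (0.56, adjusted p = 0.00029), CDK7 (0.52, adjusted p = 0.00134), CCNE2 (0.46, adjusted p = 0.00127) and CDK1 (0.37, adjusted p = 0.00927) missed the fold threshold alone. These were higher in every si-NEK2 library than in any si-CTRL library. CCNH (-0.30, adjusted p = 0.0066), like CDK4, also missed the fold threshold alone, but was lower in every si-NEK2 library than in any si-CTRL library. The groups did not overlap for 55% of all genes tested.

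Of 13 RB family, E2F and DP genes, only E2F3, an activating E2F, was called (log2 fold change -0.61, adjusted p = 0.000545, and -0.57 without si-NEK2 replicate 1, short of the fold threshold). The retinoblastoma gene RB1 had a log2 fold change of 0.06 (adjusted p = 0.4), and the list median was 0.03. Of 18 genes for the turnover of the inhibitors and cyclins, SKP1 (0.95, adjusted p = 4.14e-05) and SKP2 (0.63, adjusted p = 0.000142) rose. SKP2 is the F-box protein that marks p27 for degradation, and SKP1 is its adaptor. The call of SKP2 was lost under the other 3 scalings tried (0.50 to 0.56). FBXW7, the F-box protein for cyclin E, fell (-0.75, adjusted p = 0.000147), and the list median was 0.27. Of 5 genes for the phosphorylation of CDKs, the inhibitory kinase WEE1 (0.90, adjusted p = 0.000133) and the phosphatase CDC25B (0.81, adjusted p = 7.41e-05) rose, which act in opposite directions on CDKs (list median 0.55).

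Of 23 tested transcription factors known to act at CDKN1A, 3 rose and 5 fell (list median -0.12). Of all genes tested, 8.23% were called higher and 14.3% lower. CEBPB fell from 1302, 1642 and 2105 normalized counts to 806, 666 and 567 (log2 fold change -1.29, adjusted p = 0.00064), and EGR1, an immediate early factor, fell by 1.10 (adjusted p = 0.00137). The others that fell were VDR, MYC and TFAP2C. FOXO4 (0.89, adjusted p = 0.000803), ATF3 (0.70, adjusted p = 0.017) and KLF5 rose, and ATF3 missed the fold threshold without si-CTRL replicate 2 (0.52).

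Of 19 transcription factors known to act at CCND1, 4 fell and 1 rose (list median -0.08), against 14.3% and 8.23% of all genes. The AP-1 subunit FOSL1 fell from 59386, 39866 and 43691 normalized counts to 22840, 21684 and 21427 (log2 fold change -1.09, adjusted p = 0.000279). JUNB (-1.05, adjusted p = 0.00167), JUN and LEF1 also fell. CTNNB1, beta-catenin, rose (0.65), but missed the fold threshold without si-CTRL replicate 1 (0.57). Of 14 Polycomb and other regulators of the INK4 genes, 4 rose and none fell (list median 0.37), against 8.23% and 14.3% of all genes. ID3 rose from 2596, 3036 and 3597 normalized counts to 10151, 9140 and 6964 (log2 fold change 1.5, adjusted p = 0.00013) and ID2 by 1.31 (adjusted p = 5.34e-05). ID proteins bind bHLH factors and keep them from DNA, and the Polycomb gene RING1 and ID1 were the others that rose, of which ID1 overlapped between the groups (1690 to 2518 normalized counts in si-CTRL and 2457 to 4057 in si-NEK2 libraries).

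**Figure D4:**
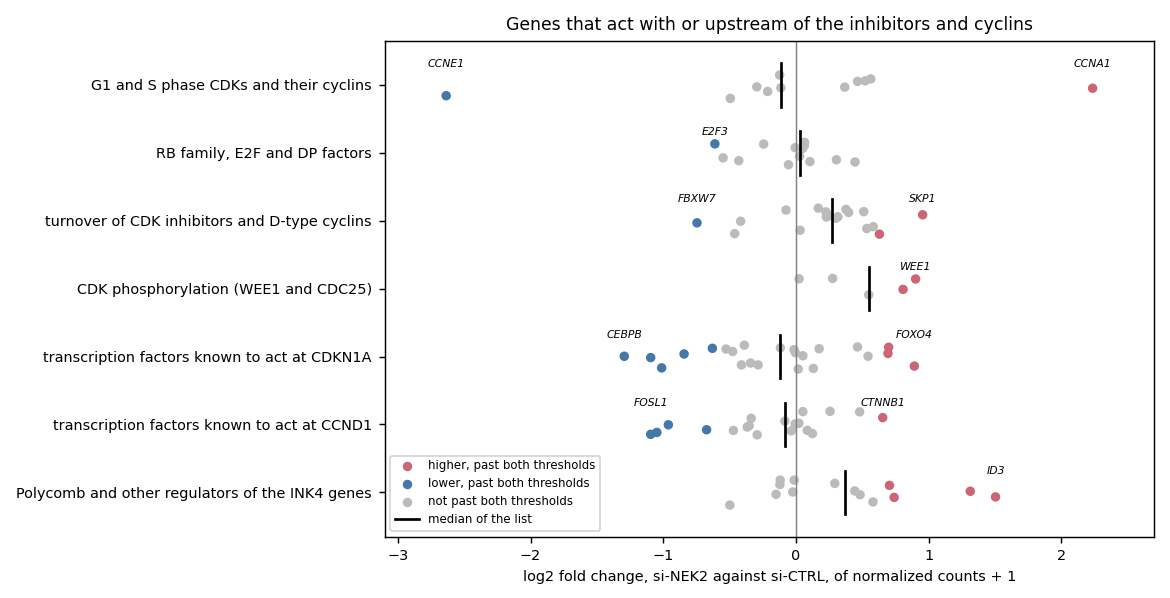
Log2 fold change of si-NEK2 against si-CTRL (horizontal axis) of the tested genes of 7 lists, 1 point per gene, red where higher and blue where lower past both thresholds, with the median of each list as a black line. CCNE1 lies lowest at -2.64 and CCNA1 highest at 2.23, and the medians of the lists lie between -0.12 and 0.55.

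The profiles most like that of CDKN1A over the 6 libraries were those of FOXL1, PPP1R3F and ANKRD44, which differed from it by a root mean square of 0.0451, 0.0624 and 0.0636 in centred log2 values, out of 12907 genes compared. USP12 (0.0399) and GLIDR (0.0485) were among the 3 most like CCND1. The rows next to CDKN1A on the chromosome, PANDAR and RAB44, were listed at 0 and at most at 11.4 normalized counts in every library. Next to CDKN1B, the row of APOLD1 and DDX47 had a log2 fold change of 0.45.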

How the data were processed

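PolyA-enriched RNA was sequenced from 3 si-CTRL and 3 si-NEK2 samples after miRNeasy extraction and TruSeq Stranded mRNA library preparation. For the extraction, the methods of the study name the RNeasy mini kit instead. Per the labels, STAR 2.4.0, SAMtools, Picard, FastQC, DESeq2 and hg19 were used. The authors deposited a gene signal, which is the read count per gene after scaling by DESeq2 size factors, annotated with FAST DB and kept separate for each replicate. The counter and its strand setting are not given in the sources used here.

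Whole reads were recovered in 100% of values (tolerance 0.01 reads). The 18717 of 74852 genes that averaged 10 normalized counts or more were fitted with limma 3.58.1 in R 4.3.3 (lmFit, eBayes with a trend) on log2(value + 1), so that fold changes of low genes are understated, with Benjamini-Hochberg adjustment over all genes tested. Calls needed p of 0.05 or less and a fold change of 1.5 or more. edgeR 4.0.16 and DESeq2 1.42.0 on the recovered reads were alternatives. Levels per length used GENCODE release 29 exons, and promoters RefSeq. Counting errors and the limit of 3 reads for a count of 0 cover counting only. The fit was also run on simulated counts, in which far fewer genes changed than were called here. That run does not give an error rate for these calls.

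The genes and lists were chosen with earlier results of these data known. Named were all 10 genes, NEK2, CDK4, CDK6, CDK2, RB1 and SKP2, up to 2 called genes per direction and list (mean at least 50 normalized counts), the 3 most alike profiles of CDKN1A and CCND1, and adjacent genes. Some items that this rule covers, 1 list among them, are not reported here.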

Additional observations from a re-analysis of the deposited data

How the results depend on the processing

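Over 19 alternatives the count of called inhibitors and cyclins stayed at 4 or 5 of 9, except for 3 at a fold change of at least 2. With each library left out it was 4 to 5. The calls of CDKN1A, CDKN1B, CDKN2B and CCND1 and their direction held in every alternative with the 1.5-fold threshold, edgeR and DESeq2 included, while CDKN1C was lost with quantile normalization (-0.50). The count of called pathway genes, 30, was 11 at a fold change of at least 2. The sign of CDKN2A turned with upper quartile scaling (-0.0428), equal totals (-0.11) and quantile normalization (-0.0693), and ranged from -0.13 to 0.26 with each library left out. CCND3 ranged from -0.0726 to 0.0366. RB1 turned to -0.0012, -0.0635 and -0.0348 with those scalings. Equal totals moved the median of all genes to -0.11, and the share of calls that were higher from 36.6% to 21.3%, while quantile normalization moved them to 0.05 and 45.9%. With equal totals and with quantile normalization, CDK4 passed the fold threshold (-0.62 in both) and the calls of SKP2 (0.50 and 0.51) and CTNNB1 (0.52 in both) were lost. SKP2 was also lost with upper quartile scaling (0.56) and ATF3 with equal totals (0.57). Same-numbered replicates did not deviate together (correlations -0.0910, 0.0469 and -0.147). These values cannot tell whether same-numbered samples were handled together, because a shared handling need not leave a shared deviation. A replicate block gave 5 called inhibitors and cyclins and 30 pathway genes. CCND2 is limited by depth, with at most 7 reads per library. For CDKN1C the spread between libraries (coefficients of variation of 20.0% and 26.5%) exceeded that from counting (7.31% and 8.66%).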
